A study of Mus musculus with 40 samples.

Results

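The enzymes of mitochondrial beta-oxidation were followed in mouse liver after exposure to GenX, the ammonium salt of hexafluoropropylene oxide dimer acid. They were chosen by name as 10 genes: the acyl-CoA dehydrogenases Acadvl, Acadl, Acadm and Acads, the trifunctional protein subunits Hadha and Hadhb, the dehydrogenase Hadh, the thiolase Acaa2, and the auxiliary enzymes Eci1 and Decr1. The probe table held 16 probes for these 10 genes, out of 30146 probes for 21448 genes. All 16 probes passed the filter on low counts, which left 17877 probes of 12418 genes in the tests. Each gene was represented by its most counted probe, and the other 6 probes served as a check for the genes that had them.

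Wild-type Crl:CD1(ICR) mice, an outbred stock, were gavaged for 90 days with GenX at 0 (the controls), 0.1, 0.5 or 5 mg per kg of body weight and day (mg/kg below). The mice were individually housed. From the larger dose groups of the study, 5 males and 5 females per dose were sequenced, taken in order of animal number. This made 8 groups and 40 libraries, 1 from each mouse. Each library came from fixed and embedded liver sections scraped from slides, so it mixed all cell types of the organ, and in such bulk samples fewer cells of a type and less RNA per cell cannot be told apart.

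Beta-oxidation shortens fatty acyl-CoA by an acetyl unit in each turn of a cycle of oxidation, hydration, a further oxidation and thiolysis. The acyl-CoA dehydrogenases open the cycle and divide the work by chain length, from very long (Acadvl) through long (Acadl) and medium (Acadm) to short chains (Acads). The membrane-bound trifunctional protein then carries out the remaining steps on long chains, Hadh and Acaa2 serve shorter ones in the matrix, and Eci1 and Decr1 reshape double bonds of unsaturated chains so that the cycle can go on. Liver relies on the pathway during fasting, and many of its genes are known targets of PPAR alpha, a nuclear receptor that pairs with RXR and binds direct repeats of AGGTCA a single base apart.

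The reference table of RefSeq promoter windows (GRCm38.p6, the same coordinates as mm10) held a window for 8 of the 10 genes, each running from 250 bases before the start to 50 bases after it. Of these, 3 are shown, 5′ to 3′ on the strand of the gene. Hadhb is shown because its window overlaps that of Hadha. The genes lie head to head on chromosome 5, with RefSeq starts at position 30154980 for Hadha and 30155253 for Hadhb, 273 bases apart, and capitals mark the 228 bases found in both windows (chr5:30155003-30155230). Acadm is shown because it was called in both sexes from 0.5 mg/kg upward, and Acads because it was called in no comparison. Capitals mark the match to AGGTCA in Acadm, read as TGACCT on this strand, and the match to GGGCGG in Acads, read as CCGCCC.
Hadhb promoter window, chr5:30155003-30155302 (plus strand): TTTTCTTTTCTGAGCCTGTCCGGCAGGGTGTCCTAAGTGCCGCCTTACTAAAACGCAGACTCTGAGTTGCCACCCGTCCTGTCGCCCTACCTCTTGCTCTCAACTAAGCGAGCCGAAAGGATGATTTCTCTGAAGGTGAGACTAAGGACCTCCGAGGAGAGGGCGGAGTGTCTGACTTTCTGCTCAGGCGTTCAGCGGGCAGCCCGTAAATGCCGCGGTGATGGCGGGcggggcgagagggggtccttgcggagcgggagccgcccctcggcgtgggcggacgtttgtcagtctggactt
Acadm promoter window, chr3:153944594-153944893 (minus strand): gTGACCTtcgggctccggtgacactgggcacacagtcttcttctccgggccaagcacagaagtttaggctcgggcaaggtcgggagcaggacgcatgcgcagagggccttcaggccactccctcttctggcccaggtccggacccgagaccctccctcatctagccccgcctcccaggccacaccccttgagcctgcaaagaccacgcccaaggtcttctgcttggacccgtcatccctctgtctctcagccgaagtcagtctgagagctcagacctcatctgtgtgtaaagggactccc
Acads promoter window, chr5:115119297-115119596 (minus strand): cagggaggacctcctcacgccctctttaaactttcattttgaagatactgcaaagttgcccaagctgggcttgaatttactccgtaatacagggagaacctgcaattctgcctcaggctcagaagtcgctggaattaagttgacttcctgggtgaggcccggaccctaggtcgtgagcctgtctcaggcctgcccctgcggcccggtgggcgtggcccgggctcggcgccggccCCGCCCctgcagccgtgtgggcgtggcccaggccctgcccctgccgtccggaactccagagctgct

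The windows of the 8 genes were searched on both strands, with overlaps counted, for the repeat AGGTCANAGGTCA, for its unit AGGTCA and for GGGCGG, the core of the GC box bound by Sp factors. The repeat was in none of the 8, and it was in 0.0396% of the 32851 windows of the table. AGGTCA was in 2 of the 8 (Acadm and Acadvl) and in 16.3% of all windows. GGGCGG was in 6 of the 8 (Acadl, Acads, Hadha, Hadhb, Hadh and Eci1) and in 35.7% of all windows. The only match of Hadha lies in the bases shared with Hadhb, so that site was counted for both genes. A missing match says only that these letters were not in these 300 bases. The gene of Acads spans chr5:115110299-115119346 and that of Acadm chr3:153922357-153944632 (GENCODE vM21, GRCm38). Hadha spans chr5:30118304-30155162 and Hadhb chr5:30155248-30184593 in that annotation, with 85 bases between them. Its start of Hadha, at 30155162, differs from the RefSeq start at 30154980 used for the window. By GENCODE, part of the 228 bases found in both windows therefore lies within the Hadha gene.

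Mouse 355, from the females at 0.5 mg/kg, was excluded, which left 4 libraries in its group: it had 6711981 reads, under the limit of 2 SD below the mean over the 40 libraries, and 0 of them on Acads, Hadh, Eci1 and Decr1. The other 39 libraries held 10341341 to 15562253 reads. The small counts of each library had a first peak at 21 to 45 reads, taken here as the reads of 1 captured molecule. Whether counts recur at multiples of it was not tested. On this assumption Acads rested on an estimated 11.2 to 32.8 molecules per library and Acaa2 on 919 to 3875. The median estimated number of molecules per library rose with dose in males, from 329378 in the controls to 580385 at 5 mg/kg, and went from 420153 to 322975 in females, and its part in the results was not tested. The defining hepatocyte markers were high in every library, with a summed level of 8319 to 18523 CPM (normalized counts, that is, reads scaled to a common library total with TMM factors). Of the 7 hepatocyte markers tested, 4 fell in males at 5 mg/kg (Serpina1a, Apob, Cps1 and Ass1) and 3 in females (Serpina1a, Cps1 and Ass1). At 0.5 mg/kg 2 were already called lower among males, Apob (-0.43 ± 0.13) and Ass1 (-0.75 ± 0.14), and 0 among females. The same calls were made with the scaling factors of DESeq2. As background, 91 of the 12418 genes tested were called lower for males given 0.5 mg/kg. At the highest dose the background was 466 genes for males and 248 for females. The summed level over the list was 12737 to 15217 CPM in control males, 10011 to 11602 CPM at 0.5 mg/kg and 8319 to 9950 CPM at 5 mg/kg. Control females held 13947 to 16452 CPM, those given 0.5 mg/kg 13618 to 16794 CPM and those given 5 mg/kg 10306 to 12127 CPM. The part of these falls in the results was not tested. Of the 8 marker lists for other cells, 2 genes were called, both in males at 5 mg/kg: Col1a1, a collagen gene of stellate cells, was higher and Clec4g, of sinusoidal endothelium, was lower. The adipocyte markers Adipoq, Plin1 and Cfd summed to 0 to 3.12 CPM in any library.

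All of the enzymes except Acads rose with GenX in both sexes at the highest dose. In males, 9 of 10 were higher than in the controls at 0.5 mg/kg and 9 of 10 at 5 mg/kg. In females, 2 of 10 were higher at 0.5 mg/kg and 9 of 10 at 5 mg/kg. None was lower in any of these comparisons. A gene was called when its adjusted p was below 10%, by edgeR's quasi-likelihood test with Benjamini-Hochberg adjustment over all 17877 probes. Levels are in CPM, and changes are given as log2 fold change ± SE. The 3 doses of a sex were compared with the same controls.

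**Figure D1:**
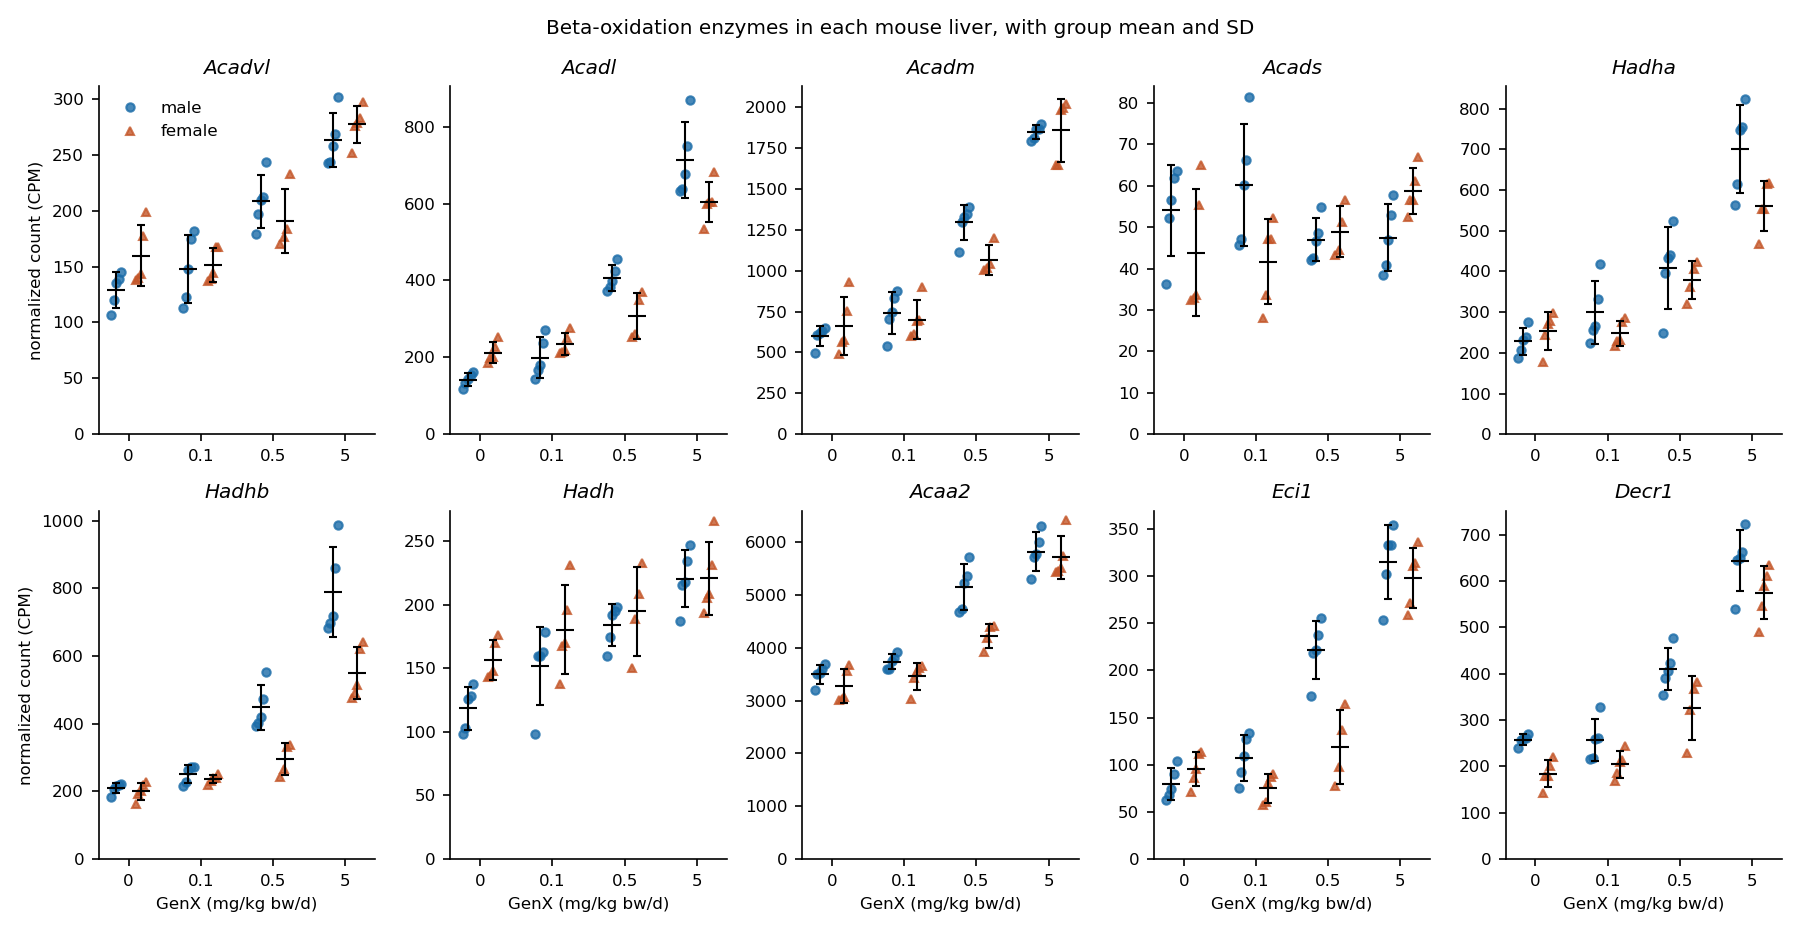
Normalized counts (CPM) of the most counted probe of each of the 10 enzymes in every mouse, by dose of GenX (mg/kg bw/d); circles are males, triangles females, and black bars give the mean and SD of each group (5 mice, 4 for females at 0.5 mg/kg). The mean of Acadl in males goes from 142 CPM in the controls to 713 CPM at 5 mg/kg, while Acads lies between 28.1 and 81.4 CPM in all 39 mice.

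The share of probes called higher gives the background of these counts. In males it was 0.0336% of the probes tested at 0.1 mg/kg, where 0 of 10 enzymes were called, 1.74% at 0.5 mg/kg and 4.83% at 5 mg/kg. In females it was 0% at 0.1 mg/kg, where 0 of 10 enzymes were called, 0.185% at 0.5 mg/kg and 1.83% at 5 mg/kg. Of the 425 probes called in males at 0.5 mg/kg in either direction, 73.2% were higher with TMM and 62.7% of the calls were higher with the scaling factors of DESeq2. The median log2 fold change over the 10 enzymes was 0.77 in males at 0.5 mg/kg and 1.47 at 5 mg/kg, against 0 and 0.11 over all genes tested. In females it was 0.45 and 1.30, against 0 and -0.01. In males at 5 mg/kg the median of all probes stood at 0.10, so that the changes of the enzymes relative to it ran from -0.29 for Acads to 2.22 for Acadl. The levels of 8 of the 9 called enzymes did not overlap between control and treated males at 0.5 mg/kg, and those of all 9 did not overlap at 5 mg/kg in either sex. Over all probes tested, every treated mouse lay above every control for 2.18% and 5.29% of probes in males at these doses, and for 1.86% in females at the highest dose. In females at 0.5 mg/kg this held for 6 of 10 enzymes, of which 2 were called, and for 0.912% of all probes.

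At 0.1 mg/kg edgeR called none of the enzymes in either sex. In males 5 of them had an unadjusted p below 0.05 (Acadl, Acadm, Hadha, Hadh and Eci1), as had 13.6% of all probes tested, and DESeq2 called 1, Acadl. The change of Acadl was 0.49 ± 0.15 (adjusted p = 0.35), with 4 of 5 mice above all controls. In females no enzyme had an unadjusted p below 0.05 and DESeq2 called none, with changes between -0.35 (Eci1) and 0.23 (Hadhb).

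**Figure D2:**
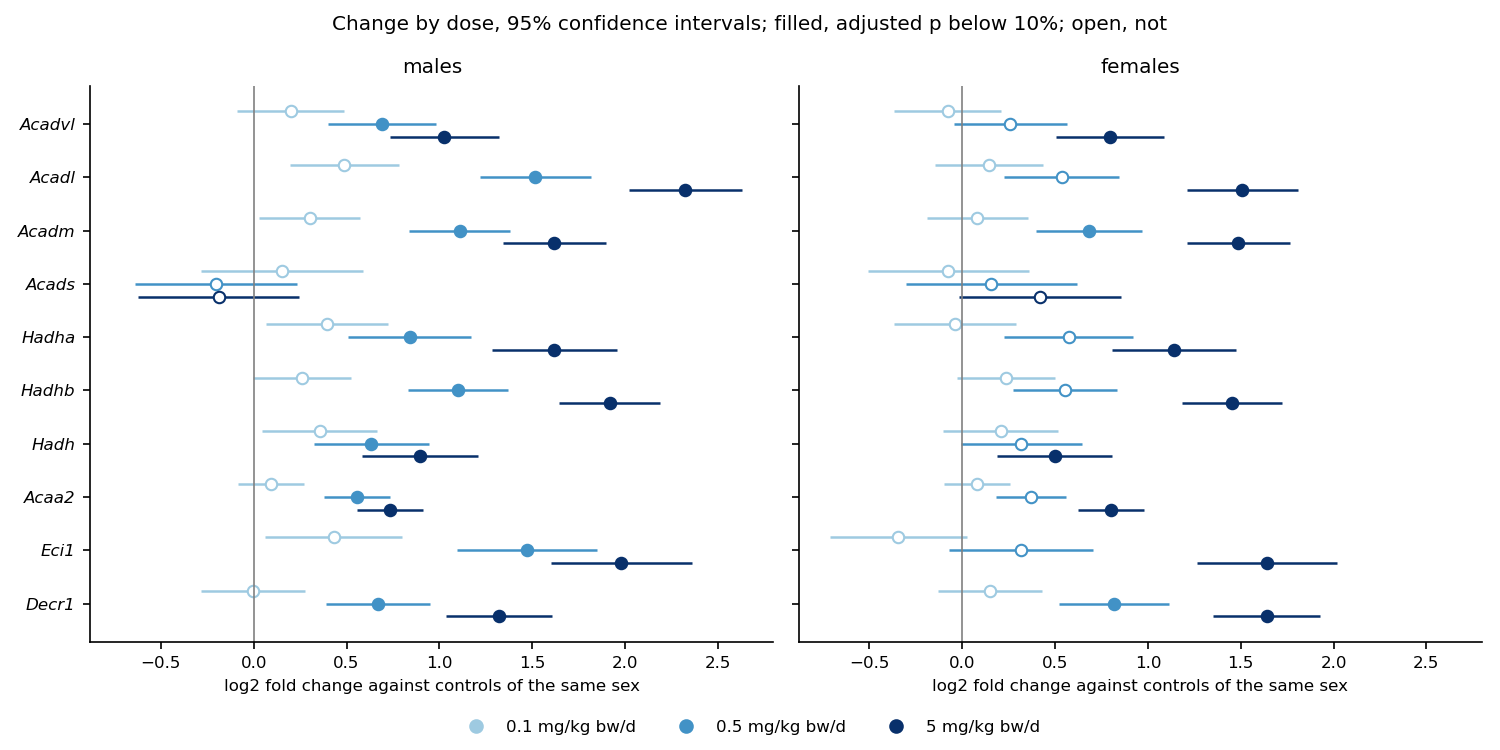
Log2 fold change of each enzyme against the controls of the same sex at the doses of 0.1, of 0.5 and of 5 mg/kg bw/d, males on the left and females on the right; bars are 95% confidence intervals, filled points passed an adjusted p of 10% and open points did not. In males the points at 0.5 mg/kg lie well toward those at 5 mg/kg, as for Acadl at 1.52 and 2.33, whereas in females Acadl stands at 0.54 and 1.51, and the intervals of Acads include 0 throughout.

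Among the acyl-CoA dehydrogenases, Acadl, which starts the oxidation of long-chain acyl-CoA, rose the most in males at 5 mg/kg. Its gene spans chr1:66830839-66863277. Control males held 117, 134, 144, 154 and 162 CPM. Males given 0.1 mg/kg held 144, 166, 179, 237 and 271 CPM. Those given 0.5 mg/kg held 371, 382, 399, 425 and 456 CPM, and those given 5 mg/kg held 633, 637, 677, 748 and 868 CPM. The groups at 0, 0.5 and 5 mg/kg did not overlap, whereas that at 0.1 mg/kg overlapped with the controls in 1 mouse. The mean rose from 142 ± 17.8 CPM (SD, n = 5) to 407 ± 34.1 at 0.5 mg/kg and 713 ± 98.4 at 5 mg/kg. These are changes of 1.52 ± 0.15 (adjusted p = 2.39e-10) and 2.33 ± 0.15 (adjusted p = 7.7e-17), or 2.86-fold and 5.01-fold.

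In females Acadl started higher and rose less. The controls held 184, 199, 202, 226 and 252 CPM, and the females given 0.1 mg/kg held 212, 215, 219, 251 and 276 CPM. The 4 females given 0.5 mg/kg held 253, 261, 349 and 369.7 CPM, and those given 5 mg/kg held 534, 599, 604, 604 and 682 CPM. All 4 at 0.5 mg/kg were above all controls, yet the change of 0.54 ± 0.15 did not pass over all probes (adjusted p = 0.259, and 0.0222 with DESeq2). The highest dose gave a change of 1.51 ± 0.15 (adjusted p = 9.97e-11), or 2.84-fold.

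Acadm, the dehydrogenase for medium chains, was called at 0.5 mg/kg in both sexes. Control males held 497, 607, 621, 629 and 650.4 CPM, and those given 0.5 mg/kg held 1113, 1299, 1331, 1347 and 1389 CPM. The males given 5 mg/kg were close together, at 1794, 1809, 1867, 1867 and 1898 CPM. The changes were 1.11 ± 0.14 and 1.62 ± 0.14 in males, or 2.16-fold and 3.07-fold (adjusted p = 1.53e-07 and 7.5e-13). In females the controls were wide, at 492, 564, 575, 751 and 931 CPM. The females given 0.5 mg/kg held 1004, 1017, 1040.4 and 1197 CPM and those given 5 mg/kg held 1647, 1648, 1984, 1992 and 2019 CPM, with no overlap between these groups. The changes in females were 0.68 ± 0.14 (adjusted p = 0.0107) and 1.49 ± 0.14 (adjusted p = 1.52e-11). Without mouse 353 the call at 0.5 mg/kg was lost, with a change of 0.62 and an adjusted p of 0.10.

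Acadvl, which handles very long chains and is bound to the inner membrane, rose less than Acadl. Its gene spans chr11:70010183-70015411. In males it went from 106 to 145 CPM in the controls to 179 to 243 CPM at 0.5 mg/kg and 243 to 302 CPM at 5 mg/kg. The changes were 0.69 ± 0.14 (adjusted p = 0.00307) and 1.03 ± 0.14 (adjusted p = 6.39e-07). In females the controls held 138 to 199 CPM, and only the group at 5 mg/kg, at 251 to 298 CPM, lay wholly above them. The change there was 0.79 ± 0.14 (adjusted p = 0.000174), and at 0.5 mg/kg it was 0.26 ± 0.15 (adjusted p = 0.592).

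Acads, the short-chain dehydrogenase, was not called at any dose in either sex. Control males held 36.3, 52.1, 56.6, 61.9 and 63.5 CPM and males given 5 mg/kg held 38.4, 40.97, 46.9, 53.0 and 57.8 CPM, within the range of the controls. The change was -0.19, with a 95% confidence interval from -0.62 to 0.25, and at 0.5 mg/kg it was -0.20, from -0.64 to 0.23. Control females held 32.5, 32.95, 33.7, 55.4 and 64.9 CPM and females given 5 mg/kg held 52.4, 56.5, 56.7, 61.3 and 66.9 CPM. The treated females overlapped with the upper controls, and the change was 0.42, with an interval from -0.02 to 0.86 (adjusted p = 0.309). With the fewest molecules of the 10, Acads had the largest SE, 0.22 on the log2 scale in males.

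The balance among the 4 dehydrogenases was tested within each mouse, as the log2 ratio of the reads of a pair, by a two-sided exact permutation test with Benjamini-Hochberg adjustment over 36 tests (6 pairs in 6 comparisons). Because a ratio is taken within a library, it does not depend on scaling. In males at 5 mg/kg all 6 pairs shifted, with no overlap between the groups. Acadl over Acads rose by 2.50, from a mean of 1.41 ± 0.45 (SD) to 3.91 ± 0.23, and Acadm over Acads rose by 1.80. Acadvl over Acadl fell by 1.29, from -0.14 ± 0.18 to -1.43 ± 0.12. The exact permutation p was 0.00794 for each of the 6, the smallest that 5 against 5 mice can give, and 0.0220 after adjustment.

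In males at 0.5 mg/kg 5 of the 6 pairs had shifted, and the exception was Acadvl over Acadm (-0.42, exact permutation p = 0.0476, adjusted 0.101). In females at 5 mg/kg 4 pairs shifted. Acadl over Acads rose by 1.03 (exact permutation p = 0.00794, adjusted 0.0220) and Acadm over Acads by 1.04 (exact permutation p = 0.0159, adjusted 0.0408). Acadvl fell against both Acadl (-0.70) and Acadm (-0.71), each with an exact permutation p of 0.00794 and 0.0220 after adjustment. Acadl over Acadm was 0.70 higher in treated males at 5 mg/kg but -0.01 in females (exact permutation p = 0.960), and the difference between the sexes in this ratio was not tested. At 0.5 mg/kg in females 1 pair passed, Acadvl over Acadm (-0.46, exact permutation p = 0.0317, adjusted 0.0714). That call was lost without any 1 of 8 mice (151, 152, 154, 155, 351, 352, 353 and 354), with adjusted p values of 0.113 to 0.189, and without mouse 155 Acadm over Acads passed instead (0.72, adjusted exact permutation p = 0.0643). At 0.1 mg/kg no pair passed in either sex, and the lowest exact permutation p was 0.317.

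**Figure D3:**
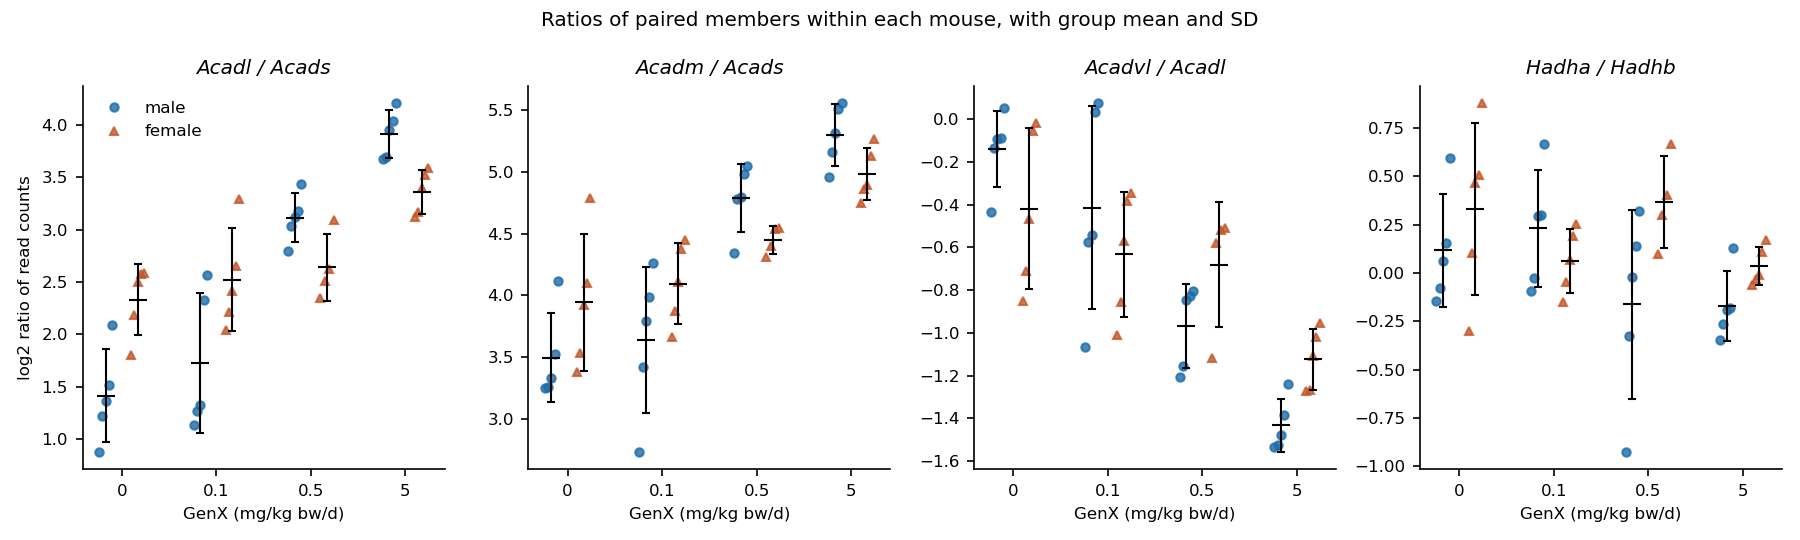
Log2 ratio of read counts of gene pairs in each mouse, by dose of GenX (mg/kg bw/d); circles are males, triangles females, and black bars give the mean and SD of each group. Acadl and Acadm climb against Acads, Acadvl drops against Acadl from -0.14 to -1.43 in males, and Hadha against Hadhb shows no shift that passed the test.

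Hadha and Hadhb, the alpha and beta subunits of the trifunctional protein, rose in both sexes at 5 mg/kg. Their promoter windows share 228 bases, and the part of this in their changes was not tested. Control males held 183, 208, 215, 218 and 221 CPM of Hadhb. Those given 0.5 mg/kg held 393, 403, 419.8, 472 and 552 CPM, and those given 5 mg/kg held 683, 697, 718, 859.9 and 988 CPM. The groups did not overlap, and the changes were 1.10 ± 0.13 and 1.92 ± 0.14, or 2.14-fold and 3.78-fold (adjusted p = 1.13e-07 and 1.57e-15). For Hadha the controls held 188, 206, 231, 239 and 277 CPM and the males given 5 mg/kg held 564, 615, 746, 754 and 823 CPM. At 0.5 mg/kg they held 249, 397, 432, 439.9 and 525 CPM, and the lowest of them, mouse 303, lay within the controls. The changes of Hadha were 0.84 ± 0.16 (adjusted p = 0.00134) and 1.62 ± 0.17 (adjusted p = 2.84e-10).

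In females Hadhb held 163 to 228 CPM in the controls, 243 to 338 CPM at 0.5 mg/kg and 477 to 641 CPM at 5 mg/kg. Hadha held 178 to 299 CPM, 320.4 to 424 CPM and 467 to 616 CPM in the same groups. All 4 females at 0.5 mg/kg were above all controls for both genes, but the changes of 0.56 ± 0.14 (Hadhb, adjusted p = 0.104) and 0.57 ± 0.17 (Hadha, adjusted p = 0.324) were not called. DESeq2 called both, with adjusted p values of 0.00123 and 0.0641. Females given 5 mg/kg showed changes of 1.45 ± 0.13 and 1.14 ± 0.17 (adjusted p = 1.52e-11 and 2.48e-06). The log2 ratio of Hadha to Hadhb differed from the controls by between -0.30 and 0.11 over the 6 comparisons. None of these differences passed (two-sided exact permutation test adjusted over 6 comparisons, lowest adjusted p = 0.476). The lowest exact permutation p was 0.0794, for males at 5 mg/kg (-0.29), where 4 of 5 mice lay below all controls. Without the control female 152 the differences in females at 0.1 and 5 mg/kg were -0.42 and -0.45 and passed (adjusted exact permutation p = 0.0952 for each), and the spread of the ratio within groups, with an SD of up to 0.49, limits what could be resolved.

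Hadh, the soluble dehydrogenase for shorter 3-hydroxyacyl-CoA, rose modestly. Its gene spans chr3:131233419-131272101. Control males held 98.2 to 137 CPM, those given 0.5 mg/kg 159.6 to 198 CPM and those given 5 mg/kg 187 to 247 CPM. The changes were 0.63 ± 0.15 (adjusted p = 0.0161) and 0.89 ± 0.16 (adjusted p = 3.65e-05). In females at 5 mg/kg all 5 mice, at 193 to 265 CPM, lay above the controls at 143 to 176 CPM. The change of 0.50 ± 0.15 was called (adjusted p = 0.071), but it was lost without any 1 of the mice 151, 152, 155, 451 and 455, with adjusted p values of 0.139 to 0.236.

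Acaa2, the thiolase that releases acetyl-CoA, had the narrowest spread and small changes. In males the controls held 3209.8 to 3689.8 CPM, the group at 0.5 mg/kg 4688 to 5728 CPM and that at 5 mg/kg 5306 to 6303 CPM. The changes were 0.56 ± 0.09 (adjusted p = 4.91e-05) and 0.73 ± 0.09 (adjusted p = 1.54e-08). In females the controls held 3009.5 to 3685 CPM and the group at 5 mg/kg 5428 to 6422 CPM, a change of 0.80 ± 0.09 (adjusted p = 2.7e-09). The 4 females at 0.5 mg/kg, at 3925 to 4406 CPM, were above all controls, and the change of 0.37 ± 0.09 missed the threshold (adjusted p = 0.104). It passed without mouse 152, 153 or 351, with adjusted p values of 0.0912, 0.0508 and 0.0789.

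The auxiliary enzymes Eci1 and Decr1, which move or remove double bonds, rose in both sexes at 5 mg/kg. Eci1 spans chr17:24426641-24439348 and Decr1 chr4:15917240-15945507. Control males held 62.2, 67.8, 74.6, 90.4 and 104 CPM of Eci1. Those given 0.5 mg/kg held 173, 219, 222, 238 and 256 CPM and those given 5 mg/kg 253, 302, 333, 333 and 354 CPM. All treated males at these doses were above all controls, and the changes were 1.47 ± 0.19 and 1.98 ± 0.19 (adjusted p = 3.16e-07 and 2.68e-11). In females Eci1 held 70.9, 85.9, 96.0, 111 and 113 CPM in the controls and 77.1, 97.8, 137 and 164 CPM at 0.5 mg/kg. These overlapped, and the change was 0.32 ± 0.19 (adjusted p = 0.644). Females given 5 mg/kg held 259, 271, 310.3, 314 and 336 CPM, a change of 1.64 ± 0.19 or 3.12-fold (adjusted p = 7.61e-09).

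Decr1 was the enzyme with the lowest adjusted p in females at 0.5 mg/kg. The control females held 142, 178, 180.2, 201 and 220.1 CPM and those given 0.5 mg/kg held 229, 323, 367 and 382 CPM. Those given 5 mg/kg held 489.9, 547, 590.0, 611 and 634 CPM, and the groups did not overlap. The changes were 0.82 ± 0.15 (adjusted p = 0.00147) and 1.64 ± 0.14 (adjusted p = 2.43e-12), or 1.76-fold and 3.12-fold. Control males were tightly grouped, at 239, 258, 260.0, 261 and 270.5 CPM. Males given 0.5 mg/kg held 354, 390.4, 406, 424 and 477 CPM and those given 5 mg/kg 540.5, 645, 650.2, 663 and 723 CPM, changes of 0.67 ± 0.14 (adjusted p = 0.0031) and 1.32 ± 0.14 (adjusted p = 7.53e-10).

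The step from 0.5 to 5 mg/kg raised some enzymes further. In males 5 of 10 were higher at 5 than at 0.5 mg/kg (Acadl, Acadm, Hadha, Hadhb and Decr1), against a background of 0.973% of probes higher. The changes ran from 0.51 ± 0.13 for Acadm (adjusted p = 0.0269) to 0.82 ± 0.13 for Hadhb (adjusted p = 3.7e-05), and the call of Acadm was lost without mouse 305 (change 0.46, adjusted p = 0.10). For Acaa2 in males the step was 0.18 ± 0.09 (adjusted p = 0.317) and for Hadh 0.26 ± 0.15 (adjusted p = 0.499). In females 7 of 10 were higher (Acadvl, Acadl, Acadm, Hadhb, Acaa2, Eci1 and Decr1), against a background of 0.571%. The largest step was that of Eci1, 1.32 ± 0.20 (adjusted p = 2.6e-05), and Acadl followed with 0.97 ± 0.16 (adjusted p = 8.42e-05). The call of Acadvl, with a step of 0.54 ± 0.15 (adjusted p = 0.0863), was lost without any 1 of 7 mice (351, 352, 354, 451, 452, 453 and 455), with adjusted p values of 0.128 to 0.317. The step of Hadha in females, 0.57 ± 0.18, was not called (adjusted p = 0.142). It passed without mouse 453 (adjusted p = 0.0999), with no filter (0.0815), with probes summed by gene (0.0902) and with DESeq2 (0.0284). By group means, 8 of 10 enzymes rose at every step of dose in males and 6 of 10 in females, but the step from 0 to 0.1 mg/kg was called for none of them. The share of all probes that rose at every step was not counted, so these counts have no background.

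The sexes were compared by the difference of their changes at each dose. At 0.5 mg/kg 2 enzymes rose less in females, against a background of 0.274% of probes called in either direction. These were Acadl, with a difference (female minus male) of -0.98 ± 0.21 (adjusted p = 0.0258), and Eci1, with -1.15 ± 0.27 (adjusted p = 0.048). The call of Acadl was lost without mouse 351 or 352 (adjusted p = 0.109 and 0.106). That of Eci1 was lost without mouse 102, 153, 303, 352 or 354, with adjusted p values of 0.102 to 0.145. The second Eci1 probe gave -0.98 ± 0.34 (adjusted p = 0.213). At 5 mg/kg 1 enzyme was called, Acadl again, with -0.82 ± 0.21 (adjusted p = 0.0427), against a background of 1.04%. The median of all probes in that comparison was -0.16, and relative to it Acadl stood at -0.66. Of all probes called there, 44.1% had a more positive change in females than in males with TMM and 57.6% with the scaling factors of DESeq2. The call was lost without mouse 103, 154 or 402 (adjusted p = 0.102, 0.102 and 0.132).

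For the other enzymes a difference between the sexes was not shown, which is not evidence that they changed alike. At 5 mg/kg the interval for Acadm was -0.51 to 0.25 and that for Decr1 -0.08 to 0.71. At 0.1 mg/kg none was called by edgeR, against a background of 0% of probes, or by DESeq2, and 1 had an unadjusted p below 0.05, Eci1 (-0.78, adjusted p = 0.224).

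Control females and males already differed in 2 enzymes, against a background of 3.49% of probes. Acadl was higher in females by 0.58 ± 0.15 (adjusted p = 0.0153), from 142 ± 17.8 CPM in males to 213 ± 26.8 CPM in females (SD, n = 5 each), and all 5 females were above all 5 males. Decr1 was lower in females by -0.48 ± 0.14 (adjusted p = 0.0479), at 184 ± 29.3 CPM against 258 ± 11.4 CPM, again with no overlap. The share of all probes without overlap between the control sexes was not counted. The call of Decr1 was lost without mouse 102, 152 or 154 (adjusted p = 0.106, 0.183 and 0.10). At 5 mg/kg the levels of Acadl were 713 ± 98.4 CPM in males and 605 ± 52.5 CPM in females. The same control mice enter the differences of change between the sexes given above, so the higher start and the smaller rise of Acadl in females are not independent results.

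The other 6 probes gave a check on the same RNA for Acadl, Acadm, Hadha, Hadhb and Eci1. Acadvl, Acads, Hadh, Acaa2 and Decr1 had no other probe, so their changes were not checked in this way. Of the 6, 4 were called in males at 0.5 mg/kg and 5 at 5 mg/kg, all higher. In females 1 of the 6 was called at 0.5 mg/kg and 4 at 5 mg/kg, all higher. At 0.5 mg/kg in females 4 of the 6 had the same sign as the most counted probe. Acadm had 2 other probes, of which Acadm_78952 changed by 1.06 ± 0.14 and 1.61 ± 0.15 in males at 0.5 and 5 mg/kg and by 0.74 ± 0.15 (adjusted p = 0.00728) and 1.64 ± 0.15 in females. The other, Acadm_31166, was not called at the middle dose, with 0.56 ± 0.21 for males (adjusted p = 0.223) and 0.43 ± 0.22 for females (adjusted p = 0.487), and was called at 5 mg/kg, at 1.23 ± 0.21 and 1.49 ± 0.21. The second Eci1 probe changed by 2.10 ± 0.24 among males given 5 mg/kg and by 1.81 ± 0.24 among females. For Hadha in females the second probe changed by -0.02 ± 0.32 at 0.5 mg/kg (adjusted p = 1) and 0.76 ± 0.30 at 5 mg/kg (adjusted p = 0.238). In males the same probe changed by 1.31 ± 0.30 and 2.07 ± 0.31. The second Acadl probe held 0 to 172 reads per library and its SE was above 1.2, so it gave no check.

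**Figure D4:**
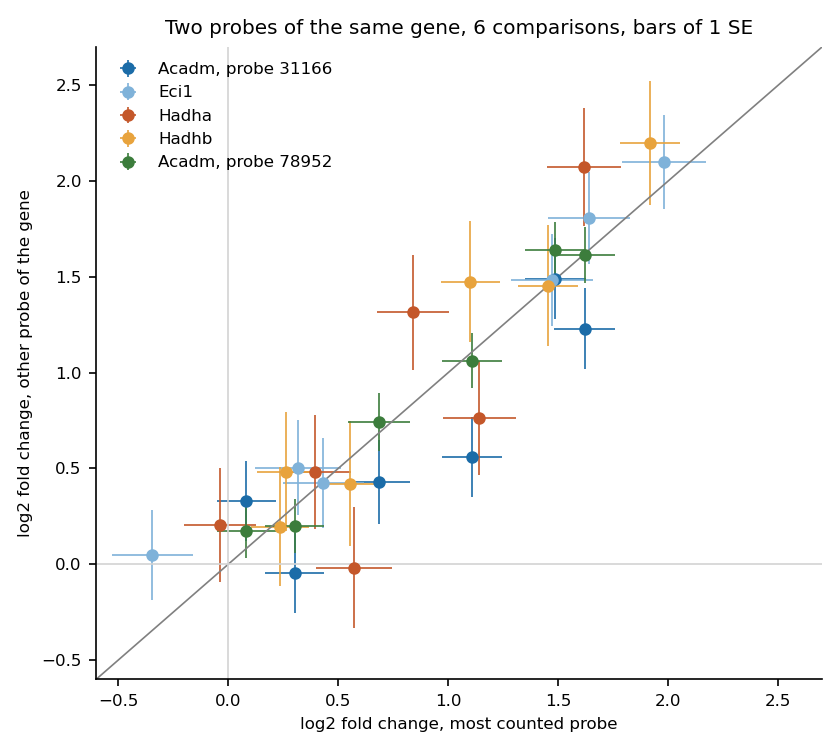
Log2 fold change of the other probe of a gene (vertical axis) against that of its most counted probe (horizontal axis) in the 6 comparisons of dose with control; points are colored by probe, bars are 1 SE and the line marks equal changes. The second Acadl probe, with SE above 1.2, is not drawn, and points lie off the line for Hadha in females given 0.5 mg/kg (0.57 and -0.02) and for Acadm_31166 in males given that dose (1.11 and 0.56).

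Genes around the pathway were counted from lists by role, read against the share of probes called. Of 4 genes of the carnitine shuttle, which carries acyl groups into mitochondria, 3 were higher among males given 5 mg/kg and 2 among females. Called in both were Cpt2, the inner carnitine palmitoyltransferase (1.18 ± 0.25 and 1.17 ± 0.25), and Slc25a20, the carrier of acylcarnitine (1.59 ± 0.38 and 1.56 ± 0.38). Crat, carnitine acetyltransferase, was called in males only (2.85 ± 0.79), and in females it stood at 2.04 ± 0.76 (adjusted p = 0.201). The female minus the male change was -0.81 ± 1.04 and was not called (adjusted p = 1). Cpt1a, the outer enzyme of the shuttle, stood at -0.81 ± 1.18 in males and -0.68 ± 1.17 in females, too imprecise to read.

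Of 6 further mitochondrial acyl-CoA enzymes 3 were higher at 5 mg/kg in both sexes. Eci2, another enoyl-CoA isomerase, changed by 1.36 ± 0.17 in males and 1.12 ± 0.17 in females. Acat1, the acetoacetyl-CoA thiolase, changed by 0.99 ± 0.15 and 0.84 ± 0.15, and Acad11, an acyl-CoA dehydrogenase, by 0.70 ± 0.11 and 0.78 ± 0.11. Of 3 genes that take electrons from the dehydrogenases, Etfb, the beta subunit of electron transfer flavoprotein, was higher in males (0.89 ± 0.15) and females (0.70 ± 0.15) at 5 mg/kg. None of the 4 genes of the propionyl-CoA branch was called by edgeR. For males given 5 mg/kg, 1 of them passed at an unadjusted p below 0.05, 1 with DESeq2 and 1 with its scaling factors in edgeR, each time Pccb (-0.38 ± 0.15, adjusted p = 0.155). The counts for females were 0, 0 and 0.

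The peroxisomal counterparts, which shorten very long chains, held the largest single changes called. Their list medians at 5 mg/kg, 0.99 in males and 1.10 in females, were below those of the 10 mitochondrial enzymes, 1.47 and 1.30. Of the 10 peroxisomal counterparts, 6 were higher in males at the highest dose and 8 in females. Ehhadh, the peroxisomal bifunctional enzyme, changed by 5.69 ± 0.20 in males and 4.96 ± 0.19 in females, more than any of the 10 mitochondrial enzymes. Acaa1a and Acaa1b, near copies of the peroxisomal thiolase whose reads may be shared, changed by 2.47 ± 0.24 and 2.33 ± 0.52 in males and by 2.60 ± 0.24 and 3.44 ± 0.55 in females. Hsd17b4, a multifunctional enzyme, changed by 0.82 ± 0.11 in males and 0.92 ± 0.11 in females, and Decr2, the peroxisomal counterpart of Decr1, by 1.17 ± 0.23 and 1.31 ± 0.23. Pecr, a reductase of trans-2-enoyl-CoA, was lower in males (-1.31 ± 0.23, adjusted p = 3.48e-05), where it was the exception in direction.

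Of 14 tested genes of the tricarboxylic acid cycle, which burns the acetyl-CoA, 6 were higher among males given 5 mg/kg (5 with the scaling factors of DESeq2) and 2 in females (3), with list medians of 0.52 and 0.38. Called in both were Dlst (0.66 ± 0.12 and 0.60 ± 0.12) and Suclg2 (0.55 ± 0.13 and 0.64 ± 0.13), subunits of the 2-oxoglutarate dehydrogenase complex and of succinyl-CoA ligase. Of 5 regulators 1 was called, Rxra, the partner of PPAR alpha, which was lower in males at 5 mg/kg (-0.35 ± 0.12, adjusted p = 0.0821). For Ppara itself the change was -0.48 ± 0.28 among males (adjusted p = 0.353) and 0.35 ± 0.28 among females (adjusted p = 0.786).

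Over the 39 mice, with levels centred on the mean of each sex, the pattern of the 10 enzymes together was most like that of Ehhadh (Pearson r = 0.98), Acot1 (0.98), Acsl1 (0.97), Cyp4a31 (0.97) and Hsd17b11 (0.96). These are a peroxisomal enzyme, a cytosolic acyl-CoA thioesterase, an acyl-CoA synthetase, a cytochrome P450 of the fatty acid hydroxylase family and a lipid droplet dehydrogenase. Acot1 and Cyp4a31 belong to families of near-identical genes, so their reads may be shared. Among the enzymes, r with the mean of the other 9 was 0.75 for Hadh, 0.09 for Acads and 0.90 to 0.96 for the rest. All of these mice share the dose groups, so the values describe the common pattern across doses. When the group means were removed, the median correlation between pairs of the 10 was 0.10.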

How the data were processed

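Liver RNA of 40 mice was profiled by TempO-Seq, in which pairs of detector oligos ligated on a transcript are amplified and sequenced. Per the submitters' processing notes, the authors demultiplexed reads with bcl2fastq 2.17.1.14 and aligned them with Bowtie, with mm10 as the build, and deposited raw read counts per probe, with no molecular identifiers. Library totals were 10341341 to 15562253 reads in the 39 libraries used.

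The probe counts were analysed in R 4.3.3 with edgeR 4.0.16 (filterByExpr, TMM factors, quasi-likelihood test, 1 coefficient for each of 8 groups, Benjamini-Hochberg adjustment, calls at 10%). SE is the log2 fold change divided by the root of F. Within-mouse log2 ratios had 0.5 reads added. Alternatives were DESeq2 1.42.0, other scaling factors, no filter, all 40 libraries, only the groups compared, summed probes, a limit of 5%, and leaving out each mouse. The scripts were tested on simulated data, where DESeq2 called more unchanged probes than edgeR. The simulated spread was not that of these data, so this does not show which calls here are false. Named genes were the 10 enzymes, of each role list at most 2 genes with the largest and 2 with the smallest change among those called in both sexes at 5 mg/kg (in either sex where none was), and the 5 genes most like the enzymes. Crat, Cpt1a, Pccb, Pecr and Ppara were named after their values were seen. The enzymes and lists were chosen with earlier results of these data known.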

Additional observations from a re-analysis of the deposited data

Results flagged for a closer look

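In 80 groups of 4 or 5 mice, 2 had a mouse whose gap to the nearest other exceeded Dixon's 95% critical value, where chance gives about 1 in 20. Acadm stood at 497 CPM in the control male 105, against 607 to 650.4 CPM in the other control males. Hadh stood at 98.6 CPM in mouse 202, a male given 0.1 mg/kg, against 159.5 to 178 CPM in the other males of its group.

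The change with GenX was called as different between the sexes, by the interaction term in edgeR, for Acadl and Eci1. The female change minus the male change was -0.98 for Acadl and -1.15 for Eci1 at 0.5 mg/kg, and -0.82 for Acadl at 5 mg/kg. In this order, the calls were lost in 2 of 19, 5 of 19 and 3 of 20 fits that each left out 1 mouse.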

How the results depend on the processing

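In males at 0.5 and 5 mg/kg and in females at 5 mg/kg, 9 enzymes were called under each scaling, with DESeq2 and without the filter except for Hadh in females (0.48, adjusted p = 0.23). The count of 2 enzymes for females given 0.5 mg/kg became 6 with DESeq2, 4 with its size factors, 4 with upper-quartile factors, and 0 with only the groups compared, where Acadm had an adjusted p of 0.302 and Decr1 of 0.147. DESeq2 called 1 in males at 0.1 mg/kg. Upper-quartile factors called 0 for the difference between the sexes at 5 mg/kg. With all 40 libraries the enzymes called were 1 and 6 (males, 0.5 and then 5 mg/kg), 0 (females, 0.5), 4 (females, 5), 0 and 1 (5 against 0.5 mg/kg in males and females), 0 and 0 (sexes at 0.5 and at 5 mg/kg) and 0 (control sexes). At a limit of 5%, Hadh in females at 5 mg/kg and Acadvl between 5 and 0.5 mg/kg in females were lost. Leaving out 1 mouse gave 1 to 4 enzymes in females at 0.5 mg/kg, 0 to 2 and 0 to 1 for the sexes at 0.5 and at 5 mg/kg, 1 to 2 for the control sexes, and 0 to 1 dehydrogenase pairs in females at 0.5 mg/kg. The log2 ratio of Hadha to Hadhb then ranged from -0.42 to -0.13 in females at 0.1 mg/kg and from -0.45 to -0.16 at 5 mg/kg. The causes of these shifts were not tested. Over all probes edgeR and DESeq2 called 6 and 277 in males at 0.1 mg/kg, 425 and 878 at 0.5 mg/kg, 0 and 165, 38 and 302, and 655 and 1003 in females from 0.1 to 5 mg/kg, 472 and 837 (males) and 220 and 580 (females) between 5 and 0.5 mg/kg, 0 and 228, 49 and 396, and 186 and 557 for the sexes from 0.1 to 5 mg/kg, and 624 and 1097 for the control sexes. No called change turned its direction under these alternatives. No paired analysis was possible because each mouse has its own number. The few molecules behind Acads limit what its test could show.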
